A study of Homo sapiens with 8 samples.

Results

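The replication-dependent and linker histone genes were followed in OAW42-R cells after siRNA against UCA1. Members were the probes whose RefSeq accession maps to a current symbol starting with H1-, H2AC, H2BC, H3C or H4C, pseudogenes and noncoding genes left out, which gave 69 genes on 78 of the 58201 probes of the array. After removal of probes too close to background, 61 of the 69 genes were tested among 15454 genes. OAW42-R grew out of OAW42, a line of serous ovarian carcinoma, as its cisplatin-resistant form, and it is the only cell line of the series. Cells received either a nontargeting siRNA pool (sictrl) or siRNAs number 2 and 4 against the long noncoding RNA UCA1 given together (siUCA1), at 20 nM with the reagent InterferIn in both conditions. RNA came from 4 independent experiments per condition, named A1, M2, A2 and A3, at 24 h after transfection according to the labels, whereas the methods of the study give a longer interval. The markers of serous ovarian carcinoma were above the filter for 5 of 7 genes, MUC16 and WT1 being the exceptions, and 0 of the 2 leukocyte, 2 endothelial and 3 fibroblast genes with a probe passed it. Of these, COL1A1 was well above background on 2 sictrl and 3 siUCA1 arrays, PTPRC on 0 and 2 and PECAM1 on 1 and 1, and no probe was matched to CD68.

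Histones package DNA. A nucleosome is built from the core histones H2A, H2B, H3 and H4, and a linker histone of the H1 family binds where DNA enters and leaves it. Most genes for these proteins lie in clusters, the largest on chromosome 6, and are transcribed in S phase, when new DNA has to be packaged. Their mRNAs usually end in a stem-loop bound by SLBP instead of a poly(A) tail, and the U7 small nuclear ribonucleoprotein guides the cut that forms this end. The labeling kit used for these arrays primes on poly(A), and how well mRNAs without a tail were labeled was not tested.

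UCA1 itself fell. Its log2 values relative to the array's 75th percentile, the scale used throughout, were 8.35, 8.37, 8.60 and 7.48 on the sictrl arrays A1, M2, A2 and A3, and 3.68, 2.59, 3.02 and 3.34 on the corresponding siUCA1 arrays. The groups did not overlap, and the log2 fold change was −5.04 ± 0.29 (SE, n = 4 per condition, limma, adjusted p = 0.000122, two-sided exact permutation p = 0.0286, the smallest that 4 arrays against 4 allow). The array sictrl A3 and the array siUCA1 A1 were uneven. The surface trend that the scanner software fitted and removed had a root mean square of 0.321 on sictrl A3 and 0.287 on siUCA1 A1 and of 0.0737 to 0.0943 on the other 6 arrays, and replicate spots of a probe varied by 34.5% and 34.6% against 9.03% to 11.4%. For the 3878 genes that passed the test on the other 6 arrays, the value on sictrl A3 was nearer the sictrl mean for 65.2% and that on siUCA1 A1 nearer the siUCA1 mean for 63.2%. Histone results are therefore given with all 8 arrays first and then without these 2. All 8 arrays lay on 1 slide and were scanned in 1 run, and no spot was saturated.

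With all 8 arrays, 0 of the 61 histone genes were DEGs after siUCA1 in either direction (limma, Benjamini-Hochberg adjusted p under 0.05), while 11.6% of all genes tested were, 5.85% lower and 5.72% higher. In bulk RNA, fewer cells expressing a gene and less RNA per cell cannot be told apart. At an unadjusted p under 0.05, 5 histone genes differed, each lower in siUCA1: H1-5, H2BC26, H4C13, H2AC14 and H2AC4. This is 5 of 61, where 13.1% of all genes were lower by that rule. In either direction the count at that p was 19 of 61 without siUCA1 A1, against 4863 of 15631 among all genes. Without sictrl A3 it was 16 of 62, against 4862 of 15931. Without any 1 of the other arrays it was 1 to 4, against 3517 to 3800 of the 15464 to 15943 genes tested. The log2 fold change was below 0 for 51 of the 61 genes, against 45.8% of all genes. Its median was −0.16 over the histone genes and 0.03 over all genes, and it ranged from −0.62 for H1-5 to 0.33 for H4C3. The 95% interval stayed within 0.5 on either side of 0 for 35 genes and within 1 for 59. The 4 values of siUCA1 were below those of sictrl without overlap for 1 gene, H1-5 (9.67% of all genes), and above them for 0 genes (11.2% of all genes). For 19 genes siUCA1 was lower than sictrl under each of the 4 replicate names, against 17.7% of all genes.

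**Figure D1:**
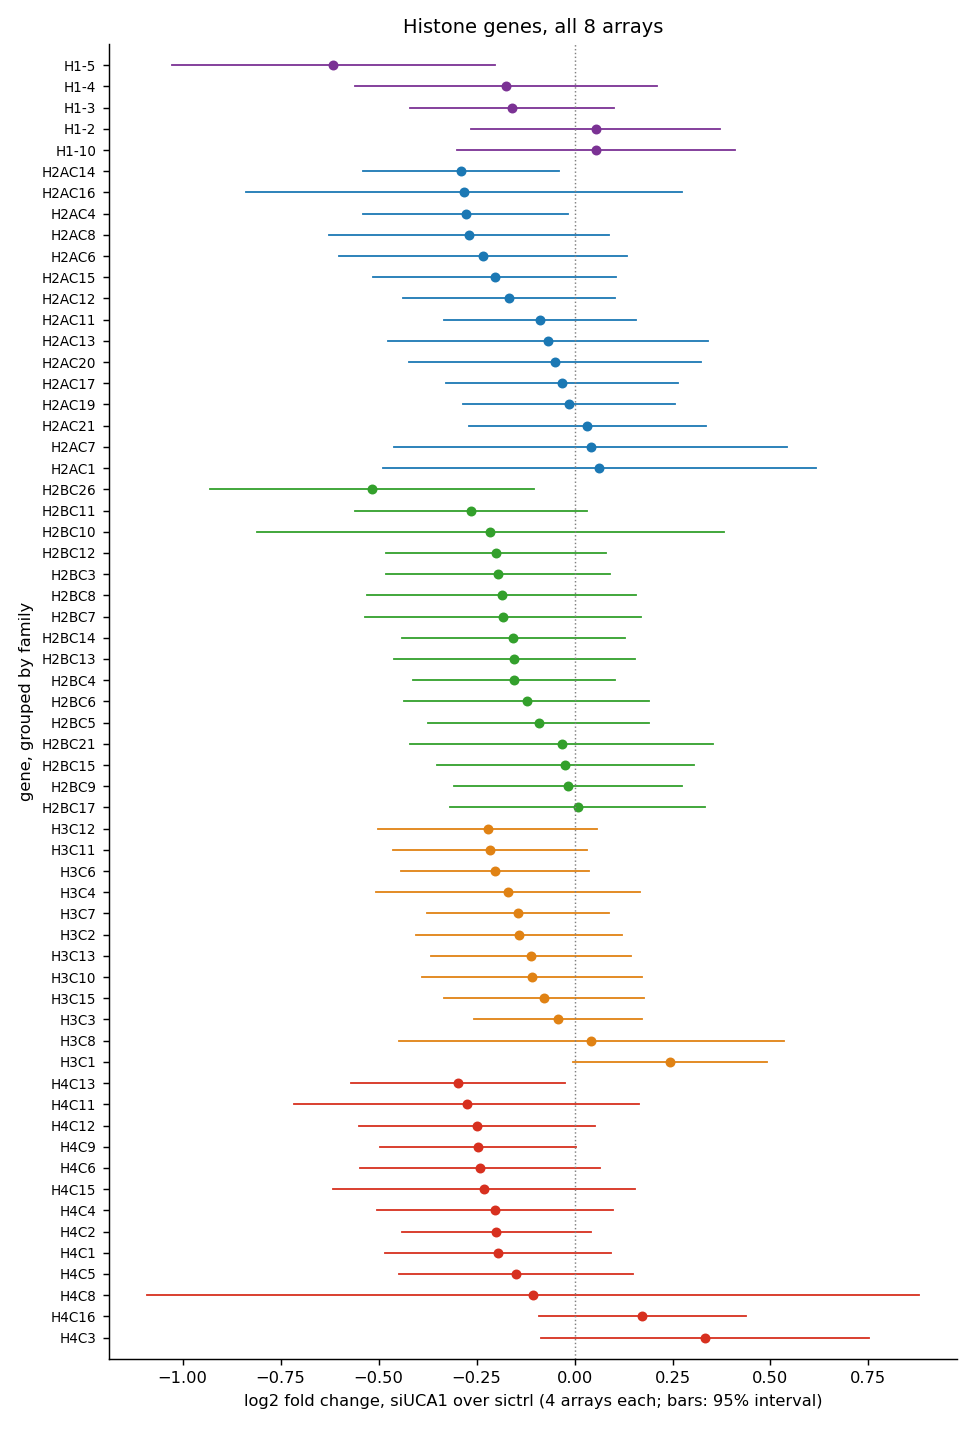
Log2 fold change of siUCA1 over sictrl for the 61 tested histone genes (x axis) by gene and family (y axis, colors for H1, H2A, H2B, H3 and H4), with points for the estimate and bars for the 95% interval (n = 4 arrays per condition). Of the 61 points 51 lie left of 0, from −0.62 for H1-5, and H4C3 lies furthest right at 0.33.

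The spread among arrays of 1 condition was as large as the difference between conditions. The median deviation of the 61 genes from their own sictrl means was 0.06, 0.02, 0.13 and −0.22 on sictrl A1, M2, A2 and A3, and 0.04, −0.21, −0.08 and −0.31 on siUCA1 A1, M2, A2 and A3. The siUCA1 arrays averaged −0.14 ± 0.15 (SD, n = 4), and the SD among sictrl arrays was also 0.15. Each uneven array lay on the side of the other condition, with 53 of 61 genes below their sictrl mean on sictrl A3 and 23 of 61 on siUCA1 A1. On the other arrays 6 to 25 genes were below that mean in sictrl and 39 to 56 in siUCA1. The same median over all genes stayed between −0.05 and 0.06 on every array.

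**Figure D2:**
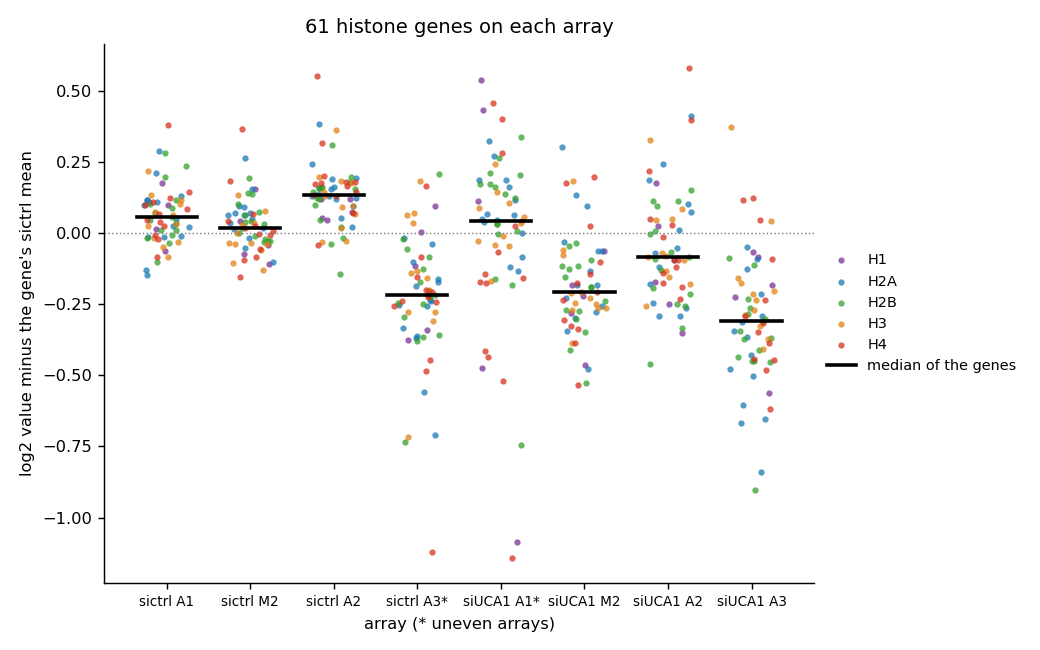
Deviation of each of the 61 histone genes from its sictrl mean (y axis, log2) on every array (x axis), colored by family, with a black bar for the median and asterisks on the uneven arrays. The bar is at −0.22 on sictrl A3 and at 0.04 on siUCA1 A1, outside the range of the other 3 arrays of the same condition.

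Of the 5 tested linker histones, 3 had a log2 fold change below 0. H1-5, an S phase linker histone, had the lowest of the 61 genes. Its log2 values were 5.88, 5.74, 5.82 and 5.36 on sictrl A1, M2, A2 and A3, and 4.62, 5.24, 5.35 and 5.14 on the siUCA1 arrays in the same order. Every siUCA1 array lay below every sictrl array, although siUCA1 A2 nearly reached sictrl A3. The log2 fold change was −0.62 ± 0.18 (SE, n = 4, limma, adjusted p = 0.0628), a mean level 1.53-fold lower that did not pass the threshold with all arrays.

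H1-3, another S phase H1, had 3.68, 3.53, 3.62 and 3.46 in sictrl and 3.69, 3.29, 3.32 and 3.35 in siUCA1. The uneven array siUCA1 A1 was the highest of all 8, and the other 3 siUCA1 arrays were the 3 lowest. The log2 fold change was −0.16 ± 0.12 (SE, n = 4, limma, adjusted p = 0.412). H1-4 had 6.70, 6.76, 6.72 and 6.22 in sictrl and 6.12, 6.38, 6.78 and 6.42 in siUCA1, groups that overlapped at both ends, with a log2 fold change of −0.17 ± 0.17 (SE, n = 4, limma, adjusted p = 0.554).

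H1-2 had 7.59, 7.55, 7.73 and 7.75 in sictrl and 8.09, 7.48, 7.68 and 7.59 in siUCA1, with a log2 fold change of 0.05 ± 0.14 (SE, n = 4, limma, adjusted p = 0.847). H1-10, a linker histone made outside S phase from a gene apart from the clusters, had 1.57, 1.48, 1.61 and 1.56 in sictrl and 2.10, 1.49, 1.38 and 1.47 in siUCA1. Its log2 fold change was 0.06 ± 0.16 (SE, n = 4, limma, adjusted p = 0.860). In both genes the positive sign came from siUCA1 A1, the highest array of the 8, and without that array the values were −0.07 for H1-2 and −0.11 for H1-10.

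**Figure D3:**
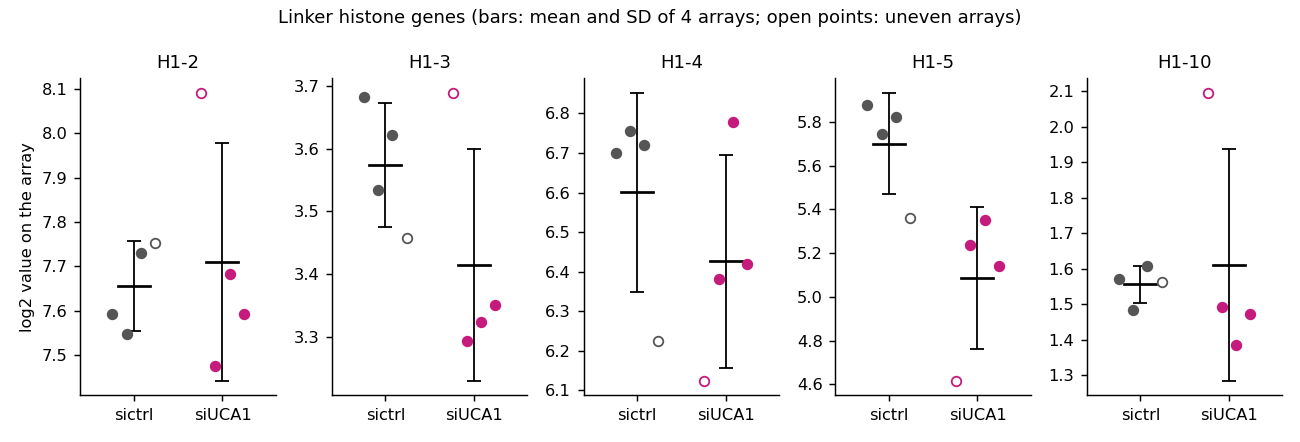
Log2 values (y axis, relative to the array's 75th percentile) of the 5 tested linker histone genes on the sictrl and siUCA1 arrays (x axis), with points for arrays, open points for the uneven arrays, and bars for mean and SD (n = 4). The groups separate for H1-5 and overlap for H1-2, H1-3, H1-4 and H1-10.

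The promoters of a replication-dependent and a replication-independent linker histone are shown, H1-5 for its low value and H1-10 as the tested linker gene read outside S phase. They come from RefSeq on GRCh38.p14 and cover 250 bases before to 50 bases after the start of the gene, read 5′ to 3′ on the gene's strand. Capitals mark matches on either strand to the TATA box (TATAAA), the CCAAT box (CCAAT), the octamer (ATTTGCAT) or the H1 box (AAACACA), an element known from H1 promoters. The H1-5 promoter (chr6:27867539-27867838, minus strand) holds the H1 box at 2 places and CCAAT at 2, and the H1-10 promoter (chr3:129316237-129316536, minus strand) holds a TATA box.
H1-5: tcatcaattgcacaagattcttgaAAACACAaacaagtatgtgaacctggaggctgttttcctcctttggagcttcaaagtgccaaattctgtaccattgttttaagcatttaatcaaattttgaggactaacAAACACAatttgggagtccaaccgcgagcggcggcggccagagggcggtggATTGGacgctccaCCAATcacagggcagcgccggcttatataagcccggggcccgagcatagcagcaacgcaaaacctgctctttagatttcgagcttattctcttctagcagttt
H1-10: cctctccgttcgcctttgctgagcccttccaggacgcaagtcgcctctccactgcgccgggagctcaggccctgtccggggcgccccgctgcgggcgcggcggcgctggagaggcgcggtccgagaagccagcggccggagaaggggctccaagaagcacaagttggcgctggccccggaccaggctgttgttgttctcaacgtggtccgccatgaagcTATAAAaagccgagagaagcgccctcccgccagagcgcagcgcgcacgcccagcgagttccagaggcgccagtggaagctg
The reference held promoters for 63 of the 69 genes. The H1 box was found in 7 of 9 H1 promoters and in 5.64% of all 35116 promoters of the table. CCAAT was in 84.1% of the histone promoters and 34.6% of all, TATAAA in 65.1% and 11.5%, and ATTTGCAT in 39.7% and 1.77%. The H2A and H2B promoters held the octamer in 11 of 15 and 13 of 17 cases, and no H1 or H4 promoter did. The median log2 fold change was −0.16 for the histone genes with the octamer and −0.15 for those without it, and −0.15 and −0.18 for those with and without TATAAA. It was −0.15 and −0.20 for those with and without CCAAT. These medians are descriptions with no test, and a missing match says only that the letters are not in the window.

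Among the H2A genes, 15 of 16 were tested and 12 had a value below 0, with a median of −0.09. H2AC14 had 8.56, 8.60, 8.71 and 8.41 in sictrl and 8.45, 8.27, 8.31 and 8.09 in siUCA1. It was lower under each replicate name, and sictrl A3 overlapped with siUCA1 A1. The log2 fold change was −0.29 ± 0.11 (SE, n = 4, limma, adjusted p = 0.129). H2AC4 had 4.58, 4.40, 4.60 and 4.21 in sictrl and 4.31, 4.10, 4.15 and 4.10 in siUCA1, again lower under each name, with a log2 fold change of −0.28 ± 0.12 (SE, n = 4, limma, adjusted p = 0.157).

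Of the 17 H2B genes 16 were tested, and 15 of them had a value below 0, with a median of −0.16. H2BC26, on chromosome 1, had 1.20, 0.94, 1.12 and 0.60 in sictrl and 0.78, 0.44, 0.51 and 0.06 in siUCA1. The array sictrl A3 was the only sictrl array inside the siUCA1 range, and siUCA1 was lower under all 4 replicate names. The log2 fold change was −0.52 ± 0.18 (SE, n = 4, limma, adjusted p = 0.104). With normexp, a model-based background correction of the raw spot signals, the H2BC26 log2 fold change was −0.31. Its promoter (chr1:228457853-228458152, plus strand, RefSeq, GRCh38.p14) is shown as the H2B gene with the lowest value, chosen after the values were seen. It has CCAAT at 3 places (capitals) and no exact octamer.
H2BC26: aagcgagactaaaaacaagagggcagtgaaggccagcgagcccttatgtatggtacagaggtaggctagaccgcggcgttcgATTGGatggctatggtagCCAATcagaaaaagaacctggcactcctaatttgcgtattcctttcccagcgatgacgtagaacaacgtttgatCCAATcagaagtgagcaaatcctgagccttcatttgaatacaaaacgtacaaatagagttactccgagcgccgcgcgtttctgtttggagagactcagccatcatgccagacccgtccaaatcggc
H2BC10 had 5.86, 5.72, 5.88 and 4.84 in sictrl and 4.83, 5.54, 5.58 and 5.49 in siUCA1, so that sictrl A3 and siUCA1 A1 lay lowest by a wide margin. The log2 fold change was −0.22 ± 0.26 (SE, n = 4, limma, adjusted p = 0.647), and −0.28 ± 0.08 without them (SE, n = 3, limma, adjusted p = 0.0492). H2BC12 has a pair of probes that disagreed. The brighter gave −0.20 ± 0.12 (SE, n = 4) and the other 0.38 ± 0.39 (SE, n = 4, limma over probes, adjusted p = 0.583).

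H2A and H2B genes often stand head to head and share the DNA between their starts. By the RefSeq positions 11 such pairs had starts 194 to 248 bases apart, and in 9 of them both genes were tested. Both values were below 0 in 7 of the 9 pairs, and the partners differed by a median of 0.09 and by at most 0.22 on the log2 scale. Taken singly, 12 of 15 tested H2A genes and 15 of 16 tested H2B genes were below 0. Whether partners were more alike than unpaired genes was not tested. In the pair of H2BC26 the partner H2AC25 was not above background on any array.

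The H3 genes were all tested (12 of 12). Their median was −0.13, and 10 values were below 0, from −0.22 for H3C12. H3C1 was the exception with the largest positive value of the family. It had 4.37, 4.35, 4.29 and 4.07 in sictrl and 4.36, 4.46, 4.60 and 4.65 in siUCA1, which overlapped at siUCA1 A1 alone, and a log2 fold change of 0.24 ± 0.11 (SE, n = 4, limma, adjusted p = 0.188).

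The H4 genes had a median of −0.20 over 13 tested of 14, with 11 values below 0. All H4 genes encode nearly the same protein, and how far their probes share transcripts was not tested. H4C13 had 8.34, 8.40, 8.54 and 8.16 in sictrl and 8.21, 7.97, 8.18 and 7.87 in siUCA1. The groups overlapped through sictrl A3, and the log2 fold change was −0.30 ± 0.12 (SE, n = 4, limma, adjusted p = 0.150), with −0.38 on its other probe. For H4C12 the dimmer probe separated the groups, with 5.83 to 6.05 in sictrl and 5.25 to 5.70 in siUCA1 (log2 fold change −0.46 ± 0.12, SE, n = 4, limma over probes, adjusted p = 0.0452), while the brighter one gave −0.25 ± 0.13 (adjusted p = 0.266) with overlap.

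H4C3 stood on the other side, with 10.27, 10.52, 10.11 and 9.71 in sictrl and 10.61, 10.33, 10.73 and 10.27 in siUCA1. The groups overlapped, and the log2 fold change was 0.33 ± 0.18 (SE, n = 4, limma, adjusted p = 0.283). With quantile normalization of all 8 arrays the H4C3 log2 fold change was 0.14 (limma, adjusted p = 0.691). H4C8 had the widest interval, −1.09 to 0.88, because sictrl A3 (4.35) and siUCA1 A1 (4.33) lay far below the other 6 arrays (5.60 to 6.03). By position, the 51 tested genes on chromosome 6 had a median of −0.17, the 8 on chromosome 1 −0.06, and the 2 elsewhere, H1-10 and H4C16, 0.11.

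Without sictrl A3 and siUCA1 A1, 19 of 62 histone genes were DEGs, all lower in siUCA1, against 11.4% lower among the 15990 genes tested there. Since sictrl A3 had low and siUCA1 A1 high histone values for its condition, leaving both out moves the histone genes downward, and how far this choice decides the count was not tested apart. The median was −0.27 against 0.03 over all genes, and 58 of 62 values were below 0 (46.3% of all genes). All 3 remaining siUCA1 arrays lay below all 3 sictrl arrays for 38 of 62 genes, against 20.1% of all genes, and above them for 1, against 25.1% of all genes. The 19 genes were 2 of 6 tested H1, 5 of 15 H2A, 7 of 16 H2B, 2 of 12 H3 and 3 of 13 H4 genes. The family medians were −0.15, −0.26, −0.28, −0.24 and −0.28 in the same order.

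The genes named here were chosen after their values were seen. H2BC26 had the lowest value on the 6 arrays, −0.75 ± 0.14 (SE, n = 3 per condition, limma, adjusted p = 0.0129). H2AC16 followed with −0.62 ± 0.17 (SE, n = 3, limma, adjusted p = 0.0418). Its values were 5.16, 5.10 and 5.14 on sictrl A1, M2 and A2 and 4.76, 4.65 and 4.11 on siUCA1 M2, A2 and A3, whereas sictrl A3 had been at 4.39. H1-5 had −0.57 ± 0.09 (SE, n = 3, limma, adjusted p = 0.0076), and H1-3 −0.29 ± 0.08 (SE, n = 3, limma, adjusted p = 0.0381).

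Among the other core histones, H2AC8 fell by 0.47, H2BC11 by 0.43, H4C13 by 0.41, H2AC4 by 0.41, H2AC14 by 0.40, H2BC7 by 0.39, H4C9 by 0.36, H2BC8 by 0.36 and H3C12 by 0.34 on the log2 scale, each with an adjusted p between 0.0156 and 0.0359 in limma. The remaining DEGs, H2AC15, H2BC3, H2BC10, H2BC14, H3C6 and H4C15, had log2 fold changes from −0.38 to −0.28. H1-2 (−0.04), H1-4 (−0.20), H1-10 (−0.10), H3C1 (0.23) and H4C3 (0.14) did not pass. Leaving out 1 array at a time also changed calls. Without sictrl A3 alone, H1-5 (−0.73, adjusted p = 0.0336) and H2BC26 (−0.64, adjusted p = 0.0461) passed, and without siUCA1 A1 alone, H2BC8 did (−0.34, adjusted p = 0.0443), where 5.88% and 8.09% of all genes were called lower. Without any other array the count stayed at 0.

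**Figure D4:**
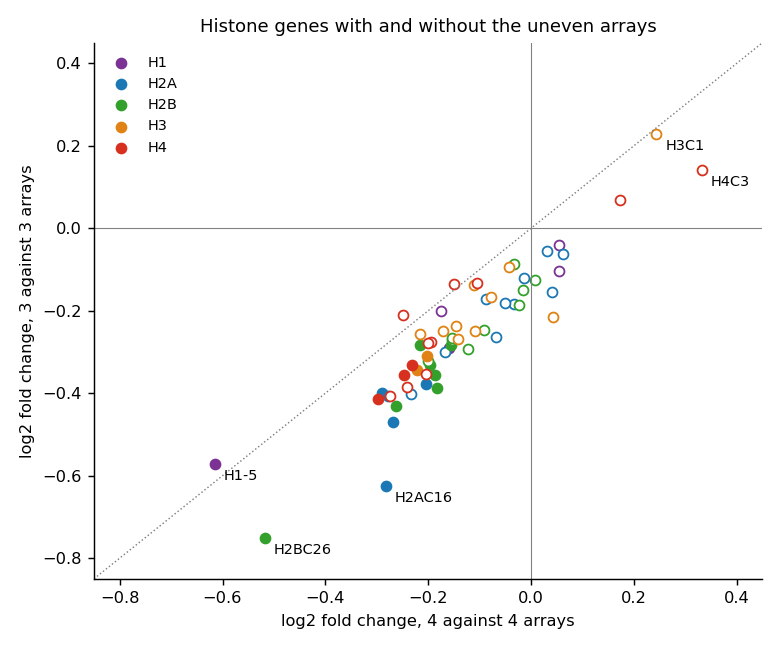
Log2 fold change of the 61 histone genes with all 8 arrays (x axis) and without the 2 uneven arrays (y axis), colored by family, with filled points for DEGs on the 6 arrays and a dotted line of equality. Most points lie below the line, with medians of −0.16 on the x axis and −0.27 on the y axis, the latter over 62 tested genes.

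Of the 69 genes 8 were not tested with all arrays. Among them, H1-7 passed background on 3 sictrl arrays and 2 siUCA1 arrays. H1-6 was above it on 0 and 1 arrays, and H1-1, H1-8, H2AC25, H2BC1 and H4C7 on none. These include the germ cell genes H1-6, H1-7, H1-8 and H2BC1.

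H1-10-AS1, a noncoding gene antisense to H1-10 that the rule sets apart, was measured beside it. Of its 3 probes 2 passed the filter, both only through the sictrl arrays, so that a lower siUCA1 value was partly chosen by the filter. The first had −2.12, −2.00, −2.03 and −2.02 in sictrl and −2.62, −3.28, −2.26 and −2.99 in siUCA1. It was well above background on 4 sictrl arrays and 1 siUCA1 array. The second was detected on 4 of 4 sictrl and 0 of 4 siUCA1 arrays. The H1-10-AS1 log2 fold change, read by the first probe, was −0.75 with the deposited background subtraction and passed the threshold (limma, adjusted p = 0.0448). With normexp background correction it was −0.13 and did not pass (limma, adjusted p = 0.730). H1-10 itself had a log2 fold change of 0.06.

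Of the genes that make and remove histone mRNA, 19 of 20 were tested, of which 2 were higher and 1 lower, against 5.72% and 5.85% of all genes. LSM10 and LSM11 are the subunits of the U7 ring that distinguish it from spliceosomal rings, and their mRNAs moved in opposite directions. LSM10 had 4.00, 4.08, 4.10 and 4.87 in sictrl and 2.85, 2.48, 2.61 and 2.67 in siUCA1. The groups lay far apart, and the log2 fold change was −1.61 ± 0.19 (SE, n = 4, limma, adjusted p = 0.00277), or −1.48 without the uneven arrays.

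LSM11 had −1.34, −1.18, −1.23 and −1.39 in sictrl and −0.43, −0.33, −0.36 and −0.36 in siUCA1. It rose by 0.91 ± 0.09 on the log2 scale (SE, n = 4, limma, adjusted p = 0.00142), also without overlap, and by 0.90 without the uneven arrays. With normexp background correction the LSM11 log2 fold change was 0.47 and did not pass (limma, adjusted p = 0.0694). The third DEG was CCNE2, which encodes cyclin E2, a partner of CDK2, at 0.35 ± 0.09 (SE, n = 4, limma, adjusted p = 0.0446). Its other probe went the opposite way (−0.90 ± 0.29, SE, n = 4, limma over probes, adjusted p = 0.078). That probe was well above background on 4 sictrl and 3 siUCA1 arrays. It passed the filter only through sictrl, which partly chose its lower siUCA1 value.

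SLBP, which binds the stem-loop, had 4.75, 4.83, 4.86 and 4.51 in sictrl and 4.71, 4.51, 4.48 and 4.57 in siUCA1. Its log2 fold change was −0.17 ± 0.11 (SE, n = 4, limma, adjusted p = 0.357), and −0.29 ± 0.08 without the uneven arrays (SE, n = 3, limma, adjusted p = 0.0345). NPAT, the coactivator of histone transcription, had 0.17 ± 0.18 (SE, n = 4, limma, adjusted p = 0.588). On the 6 arrays 6 of the 19 genes passed, where 24.3% of all genes did. Beside those above, these were HINFP, an activator of H4 genes, at 0.48, and ZNF473, a zinc finger protein of the U7 complex, at −0.67. Both were named after their values were seen. The ZNF473 probe was well above background on 4 sictrl and 3 siUCA1 arrays. It passed the filter only through sictrl, so that its lower siUCA1 value was partly chosen by the filter.

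**Figure D5:**
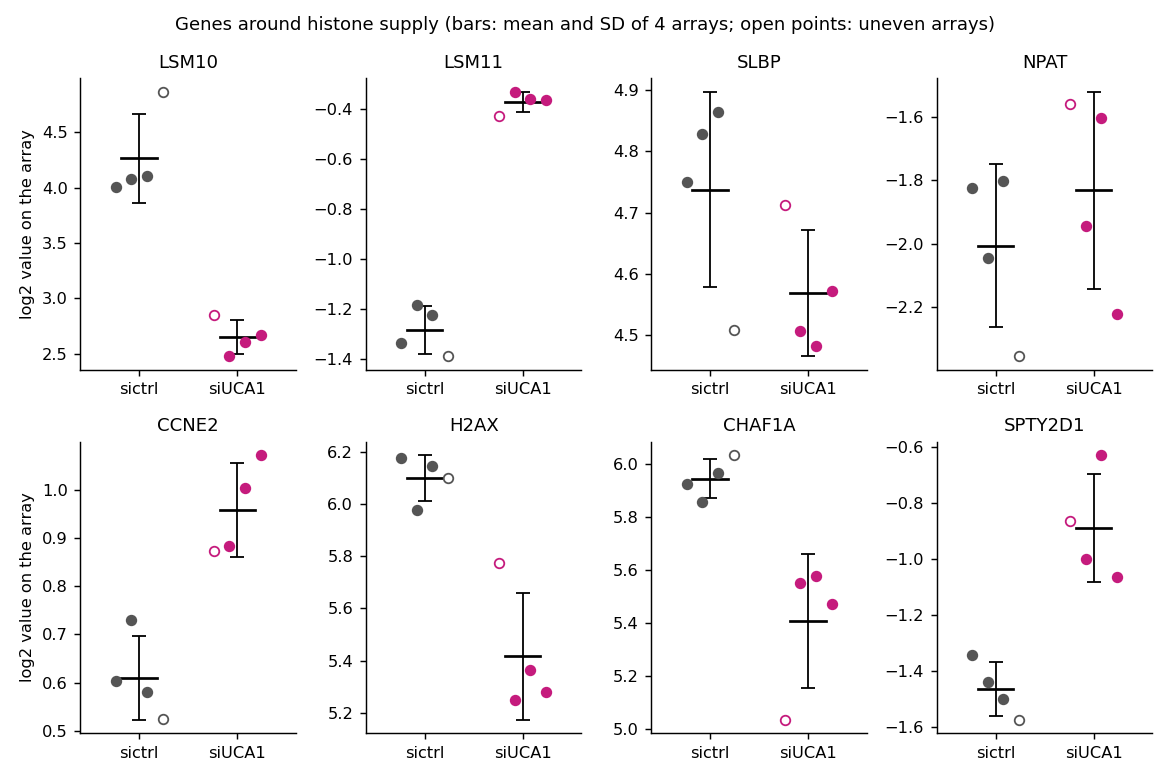
Log2 values (y axis, relative to the array's 75th percentile) of 8 genes around histone supply on the sictrl and siUCA1 arrays (x axis), with points for arrays, open points for the uneven arrays, and bars for mean and SD (n = 4). LSM10 falls from a mean of 4.26 to 2.65 and LSM11 rises from −1.28 to −0.37, while SLBP and NPAT overlap.

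Of 10 histone variants that were not members, 8 were tested and 1 was lower, against 5.85% of all genes. H2AX, the H2A variant phosphorylated at DNA breaks, had 6.18, 5.98, 6.15 and 6.10 in sictrl and 5.77, 5.25, 5.36 and 5.28 in siUCA1. It fell by 0.68 ± 0.13 on the log2 scale (SE, n = 4, limma, adjusted p = 0.0138), with no overlap, and by 0.80 without the uneven arrays. CENPA, the centromeric H3, had 1.07, 1.23, 1.10 and 0.13 in sictrl and 1.14, 0.43, 0.20 and 0.44 in siUCA1. There sictrl A3 lay below every siUCA1 array and siUCA1 A1 within the sictrl range. The CENPA log2 fold change went from −0.33 (limma, adjusted p = 0.490) to −0.77 without these 2 arrays (limma, adjusted p = 0.00428). On the 6 arrays 3 of the 8 variants were lower and 1 higher, where 24.3% of all genes were called either way. Beside H2AX and CENPA these were H2AZ1 at −0.30 (limma, adjusted p = 0.0267) and H3-3A at 0.31 (limma, adjusted p = 0.0420), both named after their values were seen.

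Of the chaperones that carry histones to and from DNA, 17 of 18 were tested, 2 were lower and 1 higher, against 5.85% and 5.72% of all genes. CHAF1A, the large subunit of chromatin assembly factor 1, fell by 0.54 ± 0.13 (SE, n = 4, limma, adjusted p = 0.0343), with −0.28 ± 0.26 on its other probe (SE, n = 4, limma over probes, adjusted p = 0.545). DAXX, which deposits H3.3, fell by 0.43 ± 0.10 (SE, n = 4, limma, adjusted p = 0.0302). SPTY2D1, an H3 and H4 chaperone, rose by 0.58 ± 0.12 (SE, n = 4, limma, adjusted p = 0.0172), with 0.23 on its other probe. With normexp the SPTY2D1 log2 fold change was 0.33 and did not pass (limma, adjusted p = 0.212). HIRA, the chaperone of H3.3, had 2.71 to 2.75 on sictrl A1, M2 and A2, 2.17 to 2.26 on siUCA1 M2, A2 and A3, 2.19 on sictrl A3 and 2.89 on siUCA1 A1. As for CENPA, which was also named after its values were seen, the uneven arrays lay with the other condition.

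The S phase genes were all tested (14 of 14), and 1 was lower and 1 higher, against 5.85% and 5.72% of all genes. RRM2, a subunit of ribonucleotide reductase, fell by 0.52 ± 0.12 (SE, n = 4, limma, adjusted p = 0.0295). With normexp the RRM2 log2 fold change was −0.29 and did not pass (limma, adjusted p = 0.445). CDT1, a licensing factor for replication, rose by 0.35 ± 0.09 (SE, n = 4, limma, adjusted p = 0.0355). On the 6 arrays 5 were lower (RRM2, MCM4, MCM6, GINS2 and UHRF1) and CDT1 higher, and 12 of the 14 values were below 0, against 11.4% lower, 24.3% called in either direction and 46.3% below 0 among all genes. The log2 fold changes there were −0.64 for RRM2 and −0.41 for MCM4. With all arrays the list had a median of −0.09 and the histone genes one of −0.16, and whether a change in the share of cells in S phase moved either was not tested.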

How the data were processed

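RNA of OAW42-R cells was measured on 8 one-color Agilent arrays, 4 per condition. The authors deposited the output of Feature Extraction 10.7.3.1 for each array, a background-subtracted intensity per spot with a surface trend removed and no normalization between arrays. The deposited table of values for the series was identical (largest relative difference 0). Other columns used were the deposited flags for background, outliers and saturation.

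Here log2 intensity minus the 75th percentile of each array's 60901 non-control spots was used. Outlier spots were left out and spots of a probe averaged. The filter kept 19045 probes, those flagged well above background on every array of sictrl, of siUCA1 or of both, and the brightest kept probe stood for its gene. Accessions were named through RefSeq (GRCh38.p14), which gave a symbol to 31104 probes. The model was fitted with limma 3.58.1 in R 4.3.3, as in the paper's methods, over all genes, with Benjamini-Hochberg adjustment, and called DEGs at an adjusted p under 0.05. The procedure was tested on simulated data. Figures were drawn with matplotlib 3.10.9 in Python 3.11.15, with pandas 2.3.3.

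The members, the lists and the tests were chosen with earlier results of these data known. The rule for names gave full values to UCA1, DEGs among the histone genes and tested linker histones, up to 4 DEGs per pathway list, and SLBP and NPAT. Other names were chosen after their values were seen, and 1 untested member is not reported here by name. In all, 22 alternatives were run, 2 of them added after seeing the data. The 4 arrays per condition set the precision, and dim probes add the error of the background.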

Additional observations from a re-analysis of the deposited data

Results flagged for a closer look

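An array was marked when its gap to the nearest of the other 3 of its condition took up more of that condition's range than Dixon's test allows, which chance gives in about 5% of sets of 4. Of 86 sets examined 16 were marked, 9 of them for sictrl A3, 6 for siUCA1 A1 and 1 for sictrl A2. The sets came from named genes and array measures. Some of these genes were named after their values were seen, so the count cannot be held against the 5%. No explanation was tested.

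The uneven arrays were marked for their surface trend, with a gap of 0.944 of the range for sictrl A3 and 0.903 for siUCA1 A1. They were marked for the variation of replicate spots as well, with 0.954 for sictrl A3 and 0.909 for siUCA1 A1.

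Among the linker histones, H1-3 on siUCA1 A1 (gap 0.855) was at 3.69 against 3.29 to 3.35, H1-10 on siUCA1 A1 (gap 0.847) at 2.10 against 1.38 to 1.49, and H1-4 on sictrl A3 (gap 0.897) at 6.22 against 6.70 to 6.76. Among the core histones, H2BC10 was low on sictrl A3 (gap 0.838) and on siUCA1 A1 (gap 0.872), and H2AC8 (gap 0.941) and H2AC16 (gap 0.929) were low on sictrl A3.

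LSM10 on sictrl A3 (gap 0.883) was further from siUCA1 than the other sictrl arrays. CENPA (gap 0.855) and HIRA (gap 0.916) on sictrl A3 were near the siUCA1 arrays, and HIRA on siUCA1 A1 (gap 0.871) was above the sictrl arrays. ZNF473 was high on sictrl A2 (gap 0.837), at −1.15 against −1.43 to −1.38.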

How the results depend on the processing

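The UCA1 log2 fold change kept its sign and passed the threshold under all 22 alternatives, from −5.54 to −4.85, and the count of histone genes called higher stayed at 0. The median of the histone genes was negative under all 22, and stayed below that of all genes by 0.14 to 0.36. It moved by more than the spread between arrays (0.14) only with quantile normalization and the 2 uneven arrays left out, to −0.35, where 35 of 62 histone genes were called lower, against 12.7% of all genes. With the 2 uneven arrays left out and the usual scaling 19 were called lower. Median scaling moved the median of all genes to −0.07 and the share of higher calls among all calls from 49.4% to 21.3%. Normexp lowered that share to 39.5%, and with cyclic loess it was 44.3%.

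For the other lists, the 6-array counts were 6 of 19 production and decay genes, 4 of 8 variants, 6 of 17 chaperones and 6 of 14 S phase genes (5 lower, 1 higher), against 24.3% of all genes, and 5, 3, 5 and 5 with quantile normalization as well, against 24.6%. Under median scaling, normexp and no detection filter, each list had 0 calls except 1 among the production and decay genes, which was LSM10. Fewer genes passed overall there, at most 535. Normexp also lowered the size of values by over 1.5 times for LSM11, SPTY2D1, RRM2 and H2BC26, as given above. The H3C1 log2 fold change was 0.14 there, the NPAT log2 fold change 0.11 and the ZNF473 log2 fold change −0.093. The S phase count was 1 with quantile normalization, 1 with cyclic loess and 0 with the slide row as a block. The chaperone count was 1 with the mean of kept probes. Leaving out 1 array at a time, the ranges were 0 to 2 for histone genes called lower, 2 to 4 for production and decay genes, 0 to 1 for variants, 0 to 4 for chaperones and 0 to 3 for S phase genes, while 4.90% to 14.7% of all genes were called. LSM10 and LSM11 passed without any single array. The H2AX log2 fold change missed the threshold without sictrl A2 (limma, adjusted p = 0.0502) or siUCA1 A2 (limma, adjusted p = 0.0507), and the SPTY2D1 log2 fold change without sictrl M2 (limma, adjusted p = 0.0522) or sictrl A2 (limma, adjusted p = 0.0592). RRM2, DAXX, CHAF1A, CDT1 and CCNE2 each missed it without any 1 of sictrl A1, M2 and A2 and siUCA1 M2, A2 and A3.

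Among the genes described singly, signs turned for H1-2, H1-10, H4C8, H4C3, NPAT, H2BC12 and CCNE2. The H1-2 log2 fold change was −0.049 with quantile normalization, −0.042 with median scaling, −0.065 with normexp, −0.036 with cyclic loess, −0.040 on the 6 arrays and −0.18 on them with quantile normalization. The H1-10 log2 fold change was −0.041 with median scaling, −0.10 on the 6 arrays and −0.13 on them with quantile normalization. On the 6 arrays NPAT was −0.033, and on the 6 arrays with quantile normalization H4C3 was −0.088. On the 6 arrays H2AC1, H2AC7, H2AC21, H2BC17 and H3C8, all above 0 with 8 arrays, were below 0. With the mean of kept probes H2BC12 was 0.091 and CCNE2 −0.28. Leaving out 1 array gave −0.11 to 0.13 for H1-10, −0.073 to 0.13 for H1-2 and −0.48 to 0.24 for H4C8, with 0.022 without sictrl A1 and 0.079 without sictrl A2.

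Samples with the same replicate name deviated together with correlations of 0.04 for A1, 0.28 for M2, 0.22 for A2 and 0.13 for A3. The names A1 and A3 each include an uneven array. The labels do not say that a name marks a shared experiment, and the main model did not pair the samples. With the replicate block 1 histone gene was called lower (H2BC26, adjusted p = 0.0249), with 1 chaperone and 1 S phase gene, and 1727 genes in all. At an unadjusted p under 0.05, 11 of 61 histone genes differed with it, against 4685 of 15454 among all genes. With cyclic loess the count was also 11 of 61, against 4332 of 15454. Precision is limited by 4 arrays per condition, and for dim genes by the background.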
